A study of Mus musculus with 40 samples.

Results

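The 10 genes described here are 3 tropomyosins (Tpm1, Tpm2, Tpm4), 3 myosin subunits (Myh9, Myh11, Myl9), 3 proteins that bind and regulate the actin filament (Cald1, Cnn1, Cnn2) and the smooth muscle actin Actg2. They are 10 of 55487 genes in the table of liver RNA counts, and all 10 were among the 20297 genes with enough counts to be tested. They were chosen by name, because a set of muscle contraction genes stood out among the genes that differed between genotypes at day 12. The day 12 comparison therefore chose the members, and its values and counts are given below as a description from which nothing is read.

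The mice were females on the C57BL/6JBomTac background with a floxed Nampt allele. Nampt codes for the enzyme that makes nicotinamide mononucleotide, a precursor of NAD+, from nicotinamide. HNKO mice (hepatocyte-specific Nampt knockout) were Nampt fl/fl and Alb-Cre +/-, and WT mice were littermates that carried the floxed allele too. Alb-Cre acts in cells that use the albumin promoter, so cells that never used it should have kept Nampt. Which cells of these livers lost Nampt was not tested, and whole liver RNA holds all of them. Mice were 9 weeks of age when a purified diet (PD) was started and were killed after 3, 6, 12 or 21 days of it. The groups held 5, 4, 5 and 5 WT libraries and 5, 5, 6 and 3 HNKO libraries at days 3, 6, 12 and 21, each from a whole liver sample. Libraries 17 and 18 (HNKO, day 21) were described as having failed quality control and were left out, so that 38 of 40 libraries were used.

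The 38 libraries held 16151037 to 64181492 counts. Nampt was lower in HNKO at days 3, 6 and 12, with log2 fold changes (HNKO minus WT) of -0.93, -0.90 and -0.82 (edgeR quasi-likelihood test, Benjamini-Hochberg adjusted p = 0.0193, 0.0128 and 0.0208). At day 21 the difference was -0.69 with an adjusted p of 0.161, and all 3 HNKO libraries were below every WT library. Markers of hepatocytes summed to 89958.5 to 149101 CPM (counts scaled to the library size after TMM normalization) in the WT libraries and to 56448 to 121716 CPM in the HNKO libraries. In 7 of these libraries the markers of striated muscle summed to 56.1 to 2850 CPM, against 3.69 to 10.2 CPM in the other 31. These were WT libraries 19 and 21 and HNKO libraries 11, 13, 23, 32 and 37. In another set of 4 libraries, HNKO 7, 13 and 35 and WT 14, Lmod1, a smooth muscle gene that caps and nucleates actin filaments, was at 2.98 to 3.43 CPM, against 0.238 to 1.86 CPM in the other 34. Library 13 was in both sets. Both sets were defined after the values had been seen, and values without them are given below for each fold change of the 10 genes that they moved by over 1.5 times or whose call they changed.

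Tropomyosins are coiled rods that lie along the actin filament and set which myosins and other proteins can reach it. In smooth muscle, myosin filaments of Myh11 pull on actin once their regulatory light chain is phosphorylated, while caldesmon and calponin hold back the sliding. Non-muscle cells use related parts, among them Myh9 and Tpm4, for the contractile fibres of the cell cortex and of adhesion. In the liver, smooth muscle surrounds arteries and portal veins, and hepatic stellate cells and portal fibroblasts gain contractile proteins when they turn into myofibroblasts.

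Serum response factor, which drives many of these genes, binds a motif named the CArG box. RefSeq promoter windows (GRCm38.p6) from 250 bases before to 50 after a start site were at hand for 8 of the 10 genes, in 9 windows, 2 of them for Cald1. Windows for Myh11 and Actg2 were not used here. A CArG box, searched on both strands, was found in 2 of the 9 windows, those of Myl9 and Cnn2, and in 535 of all 32851 windows of this length (1.63%). The stretches around these boxes are shown because they are the only matches, with the box in capitals and the gene's strand read 5′ to 3′. The box starts 161 bases before the start site of Myl9, within chr2:156775263-156775352 on the plus strand, and 56 bases before that of Cnn2, within chr10:79988504-79988583 on the plus strand.
Myl9: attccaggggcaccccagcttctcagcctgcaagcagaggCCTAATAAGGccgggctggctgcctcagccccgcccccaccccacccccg
Cnn2: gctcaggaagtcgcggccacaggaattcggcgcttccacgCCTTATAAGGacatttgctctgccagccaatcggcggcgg
A match is a description of the letters only. The other 7 windows held none, which says nothing of boxes outside them.

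The 10 genes were far apart in abundance. Per kilobase of exon (GENCODE M21, the union of all exons), Myh9 and Cald1 were the most abundant in the 19 WT libraries, with medians of 23.5 CPM per kb (range 19.3 to 32.9) and 23.1 CPM per kb (range 17.4 to 31.6). Tpm4 came next at a median of 12.2 CPM per kb (9.06 to 14.9), below every Cald1 value and above every value of Tpm1, whose median was 5.46 CPM per kb (4.28 to 7.58). Cnn2 followed at 3.32 CPM per kb, Myl9 at 2.35 and Tpm2 at 1.51. The genes most tied to smooth muscle were the rarest: Myh11 had a median of 0.917 CPM per kb, Actg2 of 0.166 and Cnn1 of 0.130. Ranges of neighbours in this order overlapped, apart from those on both sides of Tpm4. Over the 38 libraries the median number of counts was 6 for Actg2 and 9.5 for Cnn1, against 9965.5 for Myh9, so the first pair is measured with much less precision. In HNKO libraries the order was the same, with Myh9 at a median of 34.6 CPM per kb and Tpm4 at 17.5.

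**Figure D1:**
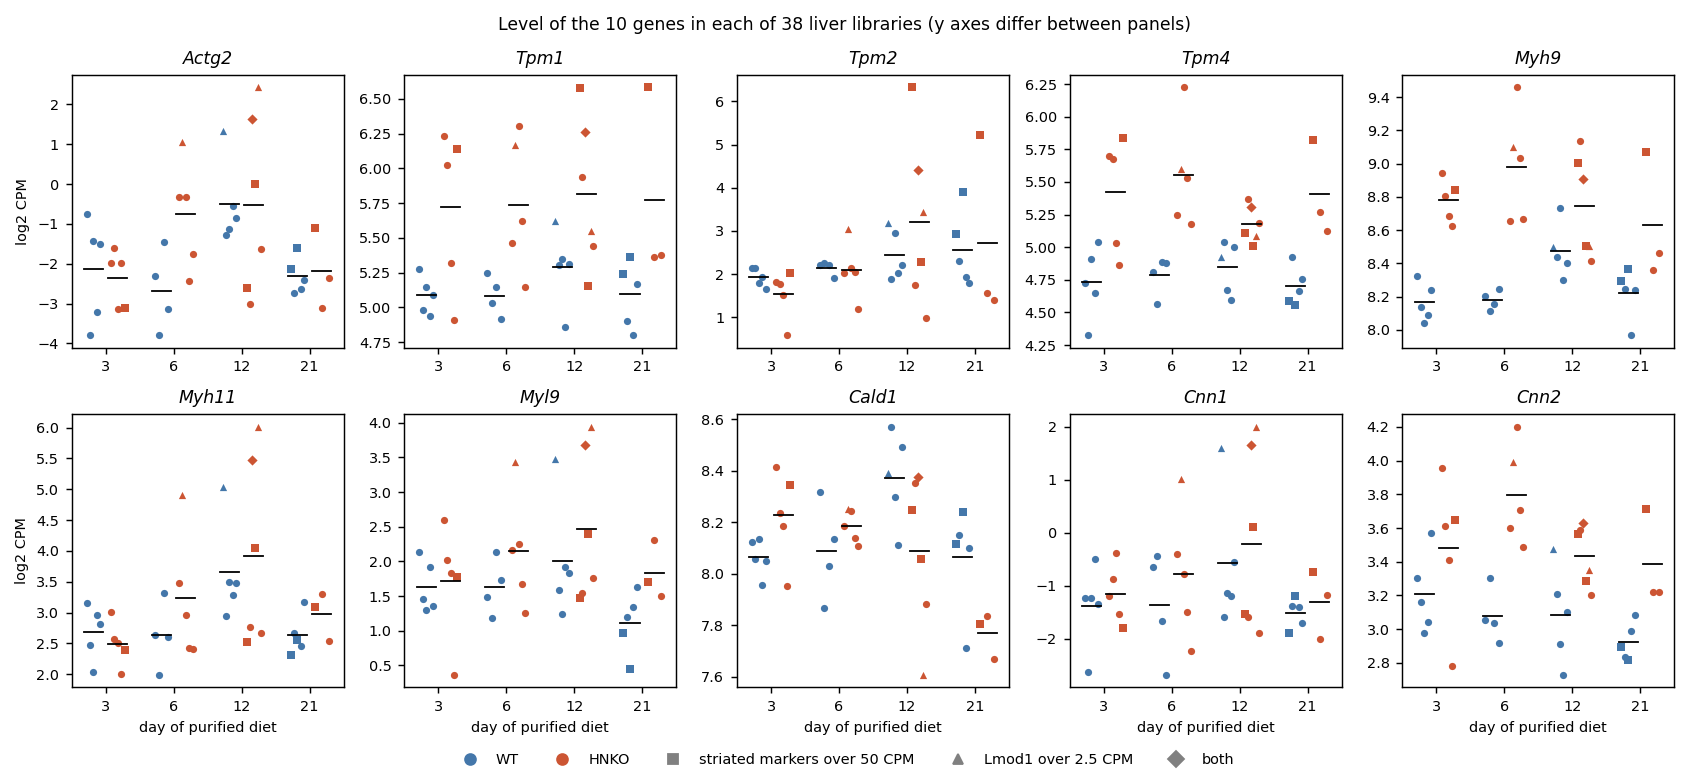
Level of each gene in each library. Each point is 1 liver library (log2 CPM, vertical axes differ between panels), blue for WT and red for HNKO, placed by day of the diet, and the bar is the group mean. Squares mark libraries with over 50 CPM of striated muscle markers, triangles those with over 2.5 CPM of Lmod1 and the diamond library 13, which has both. Tpm4, Myh9 and Cnn2 are higher in all 5 HNKO libraries than in any WT library at day 6, while high points of Actg2, Myh11, Myl9 and Cnn1 are triangles or the diamond, in WT as well as HNKO.

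The question behind the comparisons is how the liver without hepatocyte Nampt departs from WT over the first 3 weeks of the diet. Of the 10 genes, 2 were called higher in HNKO at day 3 (adjusted p under 0.05 in edgeR), where 2.95% of all tested genes were called higher. At day 6, 3 of 10 were called higher, where 8.42% of all genes were. At day 21, 1 of 10 was called higher, where 2.21% of all genes were. None of the 10 was called lower by edgeR at days 3, 6 and 21, where 1.71%, 4.37% and 0.916% of all genes were called lower. At an unadjusted p under 0.05, 3, 5 and 5 of the 10 differed in either direction at days 3, 6 and 21, where 20.9%, 26.6% and 18% of all genes did. DESeq2 called 2, 3 and 1 of the 10, each higher in HNKO, where it called 4.01%, 9.17% and 3.31% of all genes higher. The median log2 fold change (HNKO minus WT) of the 10 genes was 0.18, 0.78 and 0.46 at days 3, 6 and 21, against medians of 0.01, -0.01 and -0.01 over all tested genes. Standard errors of the 10 genes had a median of 0.36 to 0.41, against 0.20 to 0.23 over all genes on those days. HNKO libraries did not overlap with WT libraries, and lay above them, for 1, 3 and 2 of the 10 genes at days 3, 6 and 21, where 2.31%, 8.08% and 7.25% of all genes did so.

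At day 12, the comparison that chose the genes, 9 of the 10 had a fold change above 0, with a median of 0.59 on the log2 scale against 0.00 over all genes, and 0 of the 10 were called by edgeR, where 4.56% of all genes were called higher and 3.27% lower. The count was 5 at an unadjusted p under 0.05, where 24.5% of all genes passed, and 1 by DESeq2, which called 5.84% of all genes higher. For none of the 10 did all HNKO libraries lie above all WT libraries at day 12, as 2.65% of all genes did. Nothing is read from these day 12 counts.

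**Figure D2:**
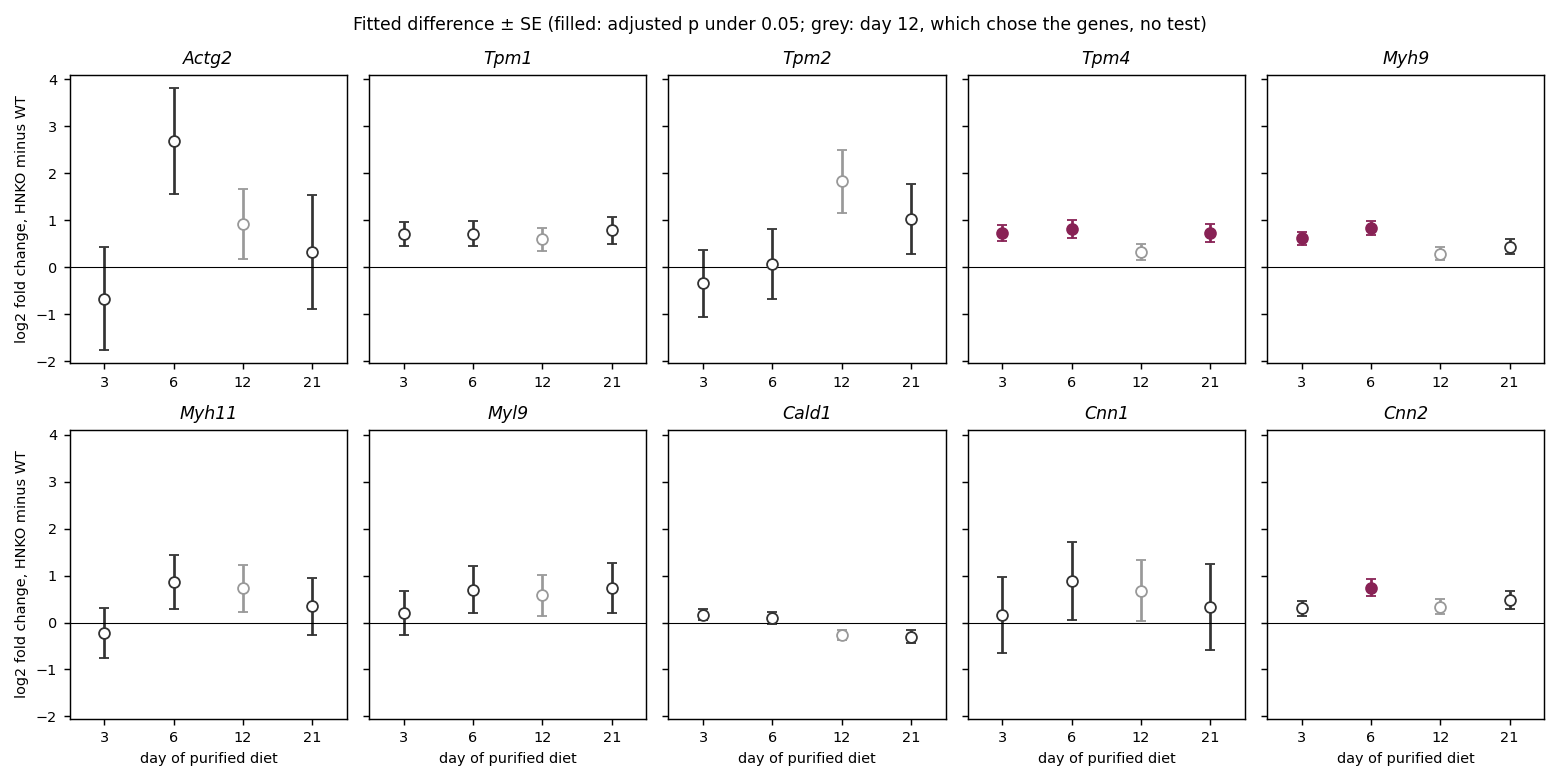
Fitted difference between HNKO and WT for each gene and day. Points are log2 fold changes (HNKO minus WT) and bars are ± 1 SE from the edgeR fit over 38 libraries; filled points have an adjusted p under 0.05, and day 12, which chose the genes, is grey and carries no test. Filled points are Tpm4 at days 3, 6 and 21, Myh9 at days 3 and 6 and Cnn2 at day 6, and the widest bars belong to Actg2 and Cnn1.

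Tpm4, the low molecular weight tropomyosin of non-muscle cells, rose in HNKO at the 3 days with a test. It lies on chr8:72134975-72153142, plus strand. At day 3 the WT libraries stood at 4.73, 4.32, 4.91, 4.65 and 5.04 log2 CPM and the HNKO libraries at 5.70, 5.68, 5.04, 4.87 and 5.84. HNKO libraries 4 and 22 fell within the WT range and the other 3 lay above it, and the fitted difference was 0.73 on the log2 scale (1.65-fold, SE 0.17, edgeR adjusted p = 0.0148). At day 6 the WT libraries stood at 4.81, 4.57, 4.89 and 4.88 log2 CPM and the HNKO libraries at 5.25, 5.60, 6.23, 5.53 and 5.18, with no overlap. The difference came to 0.82 on the log2 scale (1.77-fold, SE 0.19, edgeR adjusted p = 0.00359).

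At day 21 the WT libraries stood at 4.59, 4.92, 4.56, 4.67 and 4.76 log2 CPM of Tpm4 and the HNKO libraries at 5.82, 5.27 and 5.12. These groups did not overlap either, with a fitted log2 difference of 0.73 (1.66-fold, SE 0.20, edgeR adjusted p = 0.0338). The day 21 call was lost without HNKO library 37, the highest, where the log2 fold change was 0.51 with an edgeR adjusted p of 0.525, and without WT library 19, 21, 39 or 41 (adjusted p 0.0515 to 0.0770). Without the 7 libraries with striated markers, which leave out library 37 and WT libraries 19 and 21, the day 21 log2 fold change of Tpm4 was 0.41 (adjusted p = 0.826). The day 3 call was lost without WT library 5, HNKO library 2 or HNKO library 23 (adjusted p 0.0505 to 0.0647), without the 7 libraries (0.62, adjusted p = 0.0805) and in a fit of the 2 groups of that day alone (0.73, adjusted p = 0.0676). The day 6 call was kept whichever library was left out, and without the 7 libraries the day 6 value was 0.82 (adjusted p = 0.00423). At day 12 the WT libraries lay at 4.60 to 5.04 log2 CPM and the 6 HNKO libraries at 5.01, 5.15 and 5.37 (lowest, median and highest), a log2 difference of 0.32.

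Of the stretches of 51 bases in Tpm4 transcripts, 15.5% also occur in transcripts of other genes, and 11.5% in Gm7809, so the counts of Tpm4 could lose or gain reads there. It also overlaps the opposite-strand gene Gm26586 over 134 exonic bases. That gene had a median of 33 counts where Tpm4 had 829.5, and whether counting used the strand is not stated. For the other 9 genes the shared portion was 0% to 0.657% and none of them overlapped another gene in exons.

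Tpm1 (chr9:67022590-67049406, minus strand), which gives rise to both muscle and non-muscle tropomyosins by splicing, had fold changes of much the same size without passing the test. HNKO minus WT came to 0.72, 0.72 and 0.79 on the log2 scale at days 3, 6 and 21, with SEs of 0.25, 0.27 and 0.29 and edgeR adjusted p-values of 0.0905, 0.0783 and 0.122. Libraries within HNKO were spread more widely than in WT: at day 3 the SD was 0.58 log2 CPM in HNKO and 0.14 in WT, with HNKO library 22 at 4.91, below every WT library, and the other 4 at 5.32 to 6.23, above every WT library. At day 6, 4 of 5 HNKO libraries lay above every WT library, and at day 21, 2 of 3 did. Tpm1 passed at day 3 without HNKO library 22 (edgeR adjusted p = 0.0273) and at day 6 without HNKO library 31 (adjusted p = 0.0352) or without the 7 libraries with striated markers (0.72, adjusted p = 0.0291). With the run of library numbers (1 to 21 or 22 to 41) as a covariate, Tpm1 also passed at day 6 (0.75, adjusted p = 0.0448) and day 21 (0.97, adjusted p = 0.0429). In the other direction, the day 21 log2 fold change was 0.27 without HNKO library 37 and 0.40 without the 7 libraries (adjusted p = 0.906 and 0.874), and the day 12 value of 0.60 was 0.35 without the 7.

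Tpm2 (chr4:43514711-43523765, minus strand), the beta tropomyosin of slow skeletal and smooth muscle, did not pass the test at days 3, 6 and 21. HNKO minus WT came to -0.34, 0.06 and 1.03 on the log2 scale at days 3, 6 and 21, with SEs of 0.72, 0.74 and 0.75 and edgeR adjusted p-values of 0.834, 0.974 and 0.504. The day 21 HNKO libraries were far apart: library 37 stood at 5.22 log2 CPM and libraries 38 and 40 at 1.56 and 1.41, below all 5 WT libraries (1.79 to 3.90). At day 12 the 6 HNKO libraries ran from 0.99 to 6.33 log2 CPM with a median of 2.86, while the 5 WT libraries lay between 1.88 and 3.19. The fitted log2 difference at day 12 was 1.83, where the difference between the means of log2 CPM (3.20 against 2.45) was smaller.

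Tpm2 was highest in libraries with striated muscle markers, though not in all of them. HNKO library 11 had the highest marker sum, 2850 CPM, and the highest Tpm2, 6.33 log2 CPM. Next came HNKO library 37 with 2517 CPM and 5.22, WT library 21 with 579.7 CPM and 3.90, and HNKO library 13 with 487.8 CPM and 4.42. The other 3 libraries over 50 CPM were WT library 19 (223 CPM, Tpm2 at 2.93), HNKO library 23 (102 CPM, 2.02) and HNKO library 32 (56.1 CPM, 2.29). The 31 libraries under 50 CPM of these markers held Tpm2 at 0.58 to 3.44 log2 CPM, a range that takes in those 3. Without the 7 libraries over 50 CPM the log2 fold change of Tpm2 was -0.11 at day 12 and -0.55 at day 21, opposite in sign to the values with them. Without HNKO library 22 the day 3 value was -0.17. Without HNKO library 37 alone the day 21 value was -1.34, without HNKO library 40 it was 1.55, and without HNKO library 11 alone the day 12 value was 0.55. At day 6, where no library had over 50 CPM of these markers, the value of 0.06 was -0.27 without the 4 libraries high in Lmod1 and 0.24 without HNKO library 31. Of 17 tested striated markers none was called by edgeR at days 3 and 6. At day 21, 1 was called higher, the fast myosin heavy chain Myh4 (log2 fold change 6.11, SE 1.72, edgeR adjusted p = 0.0450), and none was without the 7 libraries. At day 12, given as a description, 11 were called higher, where 4.56% of all genes were. Without HNKO library 11 alone, 0 of these markers were called higher at day 12.

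**Figure D3:**
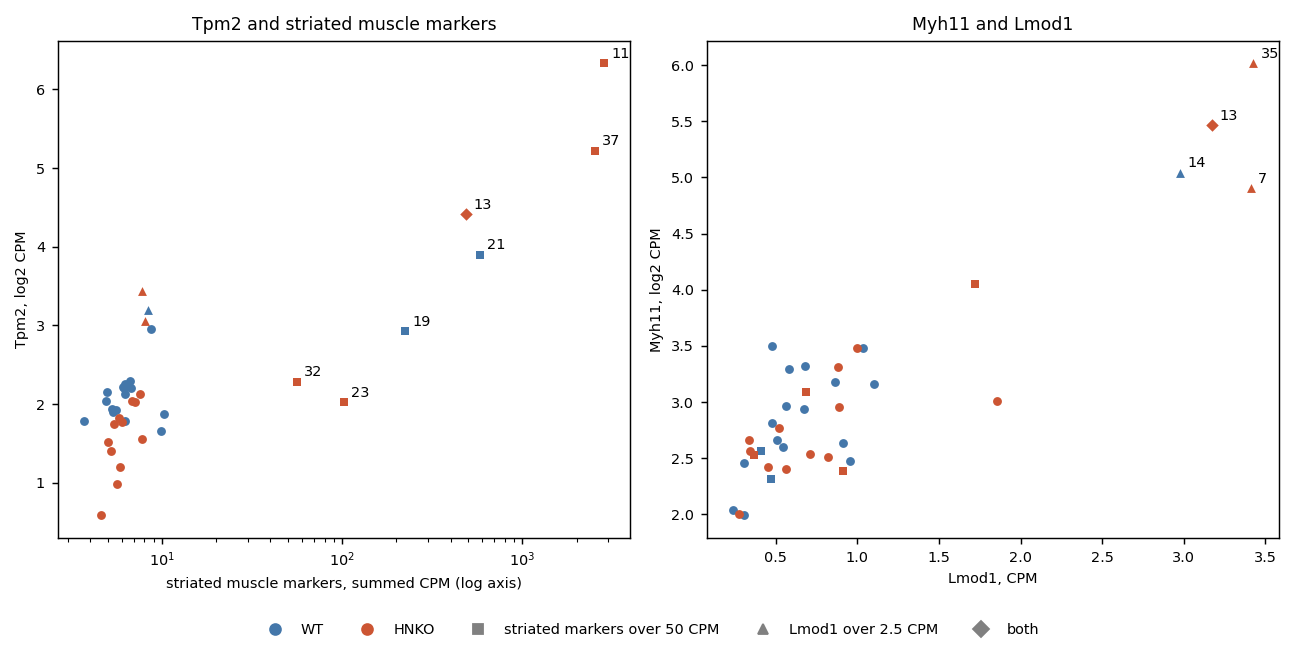
Libraries that stand apart. Left, Tpm2 (log2 CPM) against the summed CPM of striated muscle markers on a log axis; right, Myh11 (log2 CPM) against Lmod1 (CPM), each point 1 of 38 libraries, blue for WT and red for HNKO, with the same marker shapes as in the plot of levels and numbers for the libraries over the limit. Tpm2 is highest in libraries 11, 37 and 13, and Myh11 is highest in libraries 35, 13, 14 and 7, which are also the highest for Lmod1.

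Among the myosin subunits, Myh9, the heavy chain of non-muscle myosin IIA (chr15:77760587-77842175, minus strand), rose in HNKO at days 3 and 6. At day 3 the WT libraries stood at 8.32, 8.14, 8.04, 8.09 and 8.24 log2 CPM and the HNKO libraries at 8.95, 8.81, 8.69, 8.62 and 8.84. All 5 HNKO libraries lay above all 5 WT libraries, and the fitted difference was 0.62 on the log2 scale (1.53-fold, SE 0.14, edgeR adjusted p = 0.0119). At day 6 the WT libraries stood at 8.21, 8.11, 8.15 and 8.25 log2 CPM and the HNKO libraries at 8.66, 9.10, 9.46, 9.03 and 8.67. There was again no overlap, and the difference was 0.83 on the log2 scale (1.78-fold, SE 0.15, edgeR adjusted p = 0.00056).

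At day 21 Myh9 differed by 0.44 on the log2 scale without passing the test (SE 0.16, edgeR adjusted p = 0.132), with HNKO library 37 at 9.07 log2 CPM, libraries 38 and 40 at 8.36 and 8.46, and WT libraries at 7.97 to 8.36. Without library 37 the day 21 value was 0.20, and 0.26 without the 7 libraries with striated markers. At day 12 the difference was 0.29, with 6 HNKO libraries at 8.41, 8.71 and 9.13 (lowest, median and highest) and WT libraries at 8.30 to 8.73. The calls of Myh9 at days 3 and 6 were kept under every alternative tried.

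Myh11, the smooth muscle myosin heavy chain (chr16:14194535-14291372, minus strand), did not pass the test between genotypes at days 3, 6 and 21. Its log2 fold change was -0.23 (SE 0.54), 0.87 (SE 0.57) and 0.34 (SE 0.61) at days 3, 6 and 21 (edgeR adjusted p = 0.855, 0.349 and 0.830). Single libraries lay far above the rest. At day 6 HNKO library 7 stood at 4.90 log2 CPM while the other 4 HNKO libraries lay at 2.41 to 3.48 and the WT libraries at 1.99 to 3.32, and at day 12 HNKO libraries 13 and 35 and WT library 14 stood at 5.47, 6.02 and 5.04. The fitted day 6 difference was 0.87 with library 7 and 0.17 without it, alone or with the others of the 4 libraries over 2.5 CPM of Lmod1. The day 12 difference was 0.73 with all libraries and -0.17 without the 4. It was 0.15 without library 35 alone and 1.28 without WT library 14 alone. At day 21 the value of 0.34 was 0.17 without the 7 libraries with striated markers, 0.198 without HNKO library 38 and 0.56 without HNKO library 40. At day 3 it was -0.38 without HNKO library 2 and -0.11 without WT library 1.

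Myl9, the regulatory light chain of smooth muscle myosin (chr2:156775420-156781658, plus strand), had log2 fold changes of 0.20 (SE 0.47), 0.70 (SE 0.50) and 0.74 (SE 0.54) at days 3, 6 and 21 (edgeR adjusted p = 0.855, 0.399 and 0.506), and 0.58 at day 12. The libraries of the genotypes overlapped on every day. Without HNKO library 7, alone or with the others of the 4 libraries high in Lmod1, the day 6 value was 0.22. At day 12 it was 0.17 without the 4, 0.21 without library 35 alone and 1.17 without WT library 14 alone. At day 3 it was -0.069 without HNKO library 2 and 0.42 without HNKO library 22, and at day 21 it was 0.49 without HNKO library 38.

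Of the regulators of the actin filament, Cnn2, a calponin of non-muscle as well as smooth muscle cells (chr10:79988584-79996062, plus strand), rose in HNKO at day 6. The WT libraries stood at 3.06, 3.30, 3.04 and 2.92 log2 CPM and the HNKO libraries at 3.60, 3.99, 4.20, 3.71 and 3.49. The groups did not overlap, and HNKO was higher by 0.74 on the log2 scale (1.67-fold, SE 0.18, edgeR adjusted p = 0.00486). At day 3 the gap was 0.30 with an SE of 0.16 (edgeR adjusted p = 0.296), and HNKO library 22 (2.78 log2 CPM) lay below every WT library. The day 3 value was 0.17 without HNKO library 2. At day 21 it was 0.48 with an SE of 0.19 (edgeR adjusted p = 0.150), with the HNKO libraries at 3.71, 3.22 and 3.22 log2 CPM, all above the WT range of 2.82 to 3.08. The day 21 value was 0.32 without HNKO library 37 and 0.25 without the 7 libraries with striated markers. With the 2 libraries of failed quality included it was 0.89 and passed the test (adjusted p = 0.00739). The difference at day 12 was 0.34.

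Cald1, or caldesmon, which links actin to myosin and dampens the motor (chr6:34598500-34775473, plus strand), did not pass the test at days 3, 6 and 21 in the 38 libraries. Its fold change was 0.17 (SE 0.12), 0.09 (SE 0.12) and -0.30 (SE 0.14) on the log2 scale at days 3, 6 and 21 (edgeR adjusted p = 0.430, 0.704 and 0.224), and -0.27 at day 12. The day 6 value was 0.021 without WT library 10 and 0.17 without WT library 8, and the day 12 value was -0.17 without HNKO library 35. It was the only gene of the 10 with a value below 0 at day 21. With the 2 libraries of failed quality included, the day 21 value of -0.43 passed the test (adjusted p = 0.0432).

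Cnn1, the calponin of differentiated smooth muscle (chr9:22099216-22109630, plus strand), had log2 fold changes of 0.16 (SE 0.81), 0.89 (SE 0.83) and 0.32 (SE 0.92) at days 3, 6 and 21 (edgeR adjusted p = 0.941, 0.540 and 0.902). It reached 2 to 123 counts per library, and its high libraries were again 35, 13, 14 and 7, at 123, 97, 81 and 57 counts against 28 or fewer in the others. The day 6 value was 0.062 without HNKO library 7, alone or with the others of those 4. At day 12 the value of 0.68 was 0.082 without the 4, 0.10 without library 35 alone and 1.84 without WT library 14 alone. Without the 7 libraries with striated markers it was 0.31 at day 3 and -0.015 at day 21, and leaving out 1 library took it to between -0.12 and 0.50 at day 3 and between -0.024 and 0.64 at day 21.

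Actg2, the gamma actin of visceral smooth muscle (chr6:83512905-83536265, minus strand), was the rarest in counts, with 0 to 167 per library. At day 6 the WT libraries held 3, 0, 6 and 1 counts and the HNKO libraries 16, 59, 31, 2 and 8. The log2 fold change of 2.697 (SE 1.13) was the largest of the 10 genes at day 6, 3 of 5 HNKO libraries lay above every WT library, and it did not pass the test (edgeR adjusted p = 0.114). Without library 7 it was 1.96. On days 3 and 21 the values were -0.67 and 0.32, with SEs of 1.10 and 1.21 (edgeR adjusted p = 0.782 and 0.930). The day 3 value was -0.013 without WT library 1, and the day 21 value was -0.75 without HNKO library 37, 0.78 without WT library 21 and -0.087 without the 7 libraries with striated markers. At day 12 the fitted value was 0.93, 0.075 without HNKO library 35, 1.82 without WT library 14 and -0.44 without the 4 libraries over 2.5 CPM of Lmod1.

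Uncalled values moved by over 1.5 times under other choices as well. With the 2 libraries of failed quality included, the day 21 log2 fold changes were 2.69 (SE 1.12) for Actg2, 0.4959 for Tpm2, 0.52 for Myh11, 1.19 for Myl9 and 0.196 for Cnn1. With the run of library numbers as a covariate, the day 21 values were 0.59 for Actg2, 1.76 for Tpm2, -0.199 for Cald1 and 0.75 for Cnn1, and the day 3 values were -0.53 for Tpm2 and -0.052 for Cnn1. With at least 10 counts required in every library, Tpm2 at day 6 was 0.10.

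The libraries with high Lmod1 were the high libraries for the 4 genes tied to smooth muscle. Actg2 lay at 1.06 to 2.44 log2 CPM in the 4 libraries and at 0.01 or below in the other 34. Myh11 lay at 4.90 to 6.02 in the 4 and at 1.99 to 4.05 in the others, Cnn1 at 1.01 or above against 0.11 or below, and Myl9 at 3.44 to 3.95 against 0.36 to 2.60. Library 14 is WT and libraries 7, 13 and 35 are HNKO, from days 6 and 12. What part cells with Lmod1 have in these values was not tested. In whole liver, fewer cells of a type and less RNA per cell cannot be told apart.

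Differences between days within a genotype were tested over days 3, 6 and 21, without the day 12 libraries that chose the genes. Within HNKO, none of the 10 was called by edgeR, where 5.25% of all genes were called, and 3 of them, Cald1, Tpm2 and Actg2, had an unadjusted p under 0.05, where 19.8% of all genes did (adjusted p = 0.0707, 0.126 and 0.205). Within WT, none was called, where 5.2% of all genes were, and none had an unadjusted p under 0.05, where 19.4% of all genes did. DESeq2 was run over the 4 days only. Over all 4 days, which include the values that chose the genes and are given as a description, none of the 10 was called within WT (2 at an unadjusted p under 0.05 and 0 by DESeq2, which gave no adjusted p for 2), where 5.84% of all genes were called, 21.2% had an unadjusted p under 0.05 and DESeq2 called 9.29%. Within HNKO, Tpm2, Actg2 and Myh11 passed over the 4 days, where 7.9% of all genes did, and DESeq2 called 3, where it called 11.1% of all genes. Each of these 3 genes was highest in a day 12 HNKO library. None of the 3 passed without the 7 libraries with striated markers, and Tpm2 alone passed without the 4 libraries high in Lmod1.

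Whether the genotype difference itself changed between days was tested as an interaction, which contains the day 12 contrast and is given as a description. None of the 10 was called by edgeR (1, Cald1, at an unadjusted p under 0.05, and 0 by DESeq2 with 2 not given), and of all tested genes 0% were called by edgeR, with 966 at an unadjusted p under 0.05 and 16 called by DESeq2. A fold change that passed on one day and not on another was therefore not shown to differ between the days.

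Library numbers 1 to 21 and 22 to 41 mark separate runs of numbers, and within each the comparison could be made for 5 combinations of day and run at days 3, 6 and 21. Tpm1, Tpm4, Myh9 and Cnn2 had a higher mean in HNKO in 5 of 5, as 18.2% of all tested genes did. For Tpm4 the difference in mean log2 CPM was 0.95 and 0.49 in the lower and higher numbers at day 3, 0.74 and 0.76 at day 6, and 0.69 at day 21, where all 3 HNKO libraries used belong to the higher numbers. For Myh9 the values were 0.58 and 0.61 at day 3, 0.72 and 0.85 at day 6, and 0.53 at day 21, and for Cnn2 they were 0.43 and 0.018 at day 3, 0.62 and 0.82 at day 6 and 0.35 at day 21. Of the other genes, Actg2, Cald1 and Cnn1 were higher in 4 of 5, Myl9 in 3 and Tpm2 and Myh11 in 2.

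Levels of some of the 10 genes varied together within groups. The measure was the correlation, over 38 libraries, of deviations of log2 CPM from the group mean. Differences between group means play no part in it, but groups with a wider spread weigh more. For Tpm1 at day 3 the SD was 0.58 log2 CPM in HNKO and 0.14 in WT. No value within WT alone was computed. The grouping below was made after the values had been seen. Among Actg2, Myh11, Myl9 and Cnn1 the 6 pairs had Pearson r of 0.672 to 0.901 (median 0.770). Among Tpm1, Tpm4, Myh9 and Cnn2 the 6 pairs had r of 0.596 to 0.807 (median 0.698), and the 16 pairs between these groups of genes had a median of 0.191. Leaving out the 10 libraries with striated markers or high Lmod1 lowered the median of the first group to 0.241, below the median of 0.254 (highest 0.588) of the 16 pairs between the groups in the same 28 libraries, although Myh11 with Myl9 was still at 0.751. The second group had a median of 0.725 there. Without the 4 libraries high in Lmod1 alone, the medians were 0.387 in the first group, 0.713 in the second and 0.093 between them. All pairs share their libraries, and these values carry no p.

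Of 3 pairs that were tested, Tpm1 with Tpm4 had r = 0.688 and Spearman's coefficient = 0.646 (permutation test within groups, two-sided, 100000 resamples, p = 0.00019 for Pearson's and 0.00052 for Spearman's, adjusted p = 0.000285 and 0.00156 over the 3 pairs). Without libraries 22 and 37, the farthest from the median, r was 0.563. Within library numbers 1 to 21 it was 0.456 (adjusted p = 0.230) and within 22 to 41 it was 0.937. Over the 27 libraries of days 3, 6 and 21, without the day that chose the genes, it was 0.781 (permutation test, adjusted p = 0.00288). For Myh11 with Cnn1 the libraries fall apart into the 4 with high Lmod1 and the rest, and over the 34 others r was 0.357 (permutation test, adjusted p = 0.168). The value over all 38, r = 0.790 and Spearman's coefficient = 0.628 (permutation p = 0.00015 and 0.00129, adjusted p = 0.000285 and 0.00193), rests on those 4 libraries, although it was still 0.693 without the farthest 2 alone. Of those 4 libraries 3 are from day 12, and over the 27 libraries of the other days r was 0.460 (permutation test, adjusted p = 0.158). Within library numbers 1 to 21 it was 0.922, and within 22 to 41 it was 0.814 (adjusted p = 0.0913). Myh11 with Tpm4 had r = 0.119 and Spearman's coefficient = 0.183 (permutation p = 0.466 and 0.276, adjusted to the same values), 0.178 without the farthest 2 libraries, 0.319 and 0.154 within the lower and the higher library numbers, and 0.235 without the day 12 libraries.

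**Figure D4:**
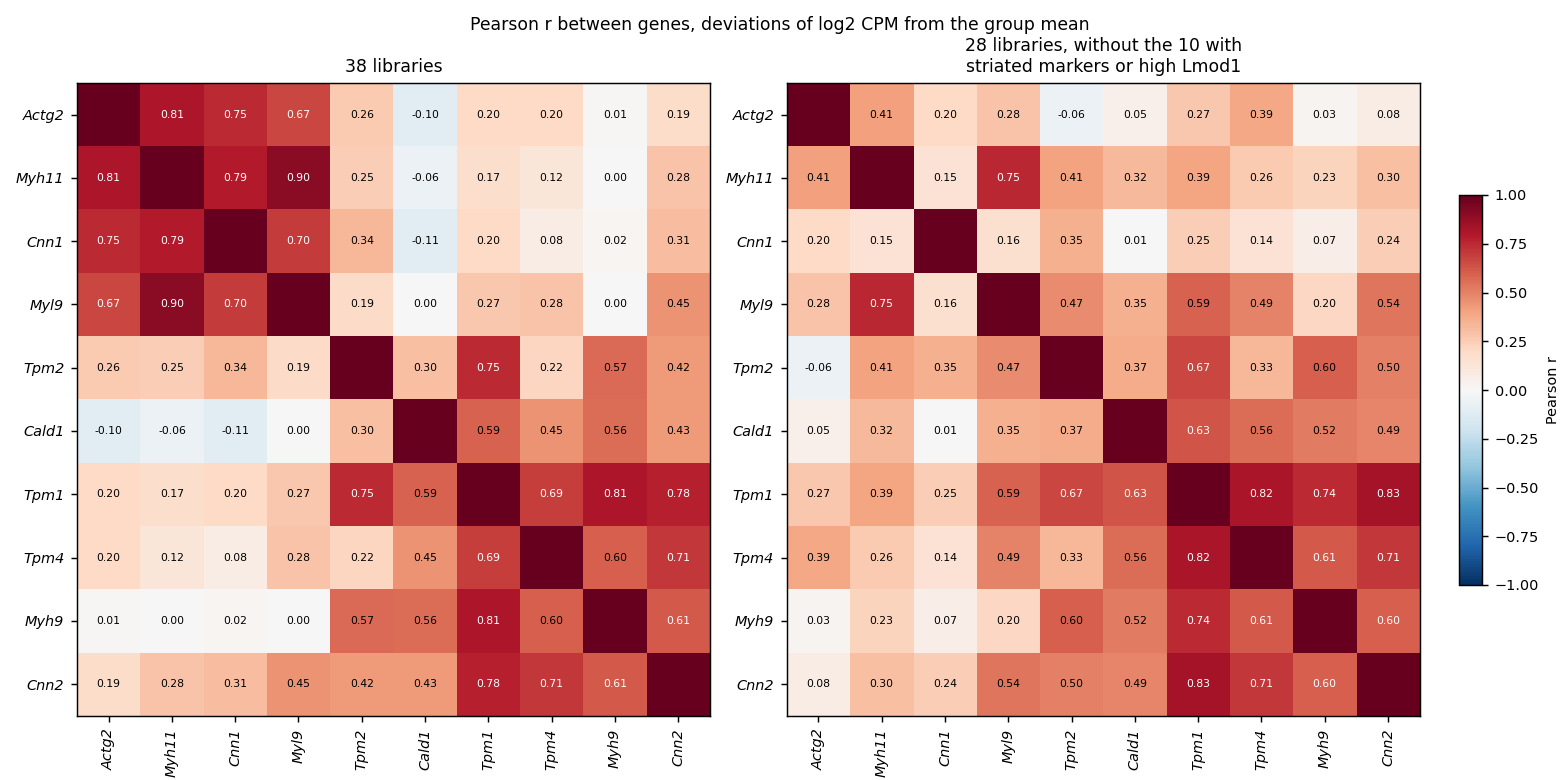
Pearson r between the 10 genes, from deviations of log2 CPM from the group mean, in all 38 libraries (left) and in the 28 libraries left after removing those with striated markers or high Lmod1 (right). Red marks positive and blue negative r, with the value in each square. The block of Actg2, Myh11, Cnn1 and Myl9 on the left (median 0.770) fades on the right (median 0.241, where the 16 pairs between the blocks have 0.254), while the block of Tpm1, Tpm4, Myh9 and Cnn2 stays (medians 0.698 and 0.725).

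Some markers of stellate cells and fibroblasts and of cholangiocytes were called higher in HNKO too. Of 11 stellate cell and fibroblast markers, 5, 6 and 4 were called higher at days 3, 6 and 21 (1 lower at day 3), and of 7 cholangiocyte markers 5, 5 and 3 were called higher. The stellate cell and fibroblast markers did not move alike. Lum, Col1a1 and Col3a1 were called higher on each of these days, and Lrat, Reln and Dcn were called on none of them. The marker called lower at day 3 was Hhip, with a log2 fold change of -1.13, and it stood at -0.62 and -0.85 at days 6 and 21. Calls at day 12 come from the comparison that chose the genes, and for these and the lists that follow they are left out or given as a description. The summed cholangiocyte markers ran from 41.9 to 60.7 CPM in the 19 WT libraries and from 118 to 764 CPM in the 19 HNKO libraries, and the stellate and fibroblast sum from 615 to 758 CPM in WT and from 569 to 1620 CPM in HNKO. Among the day 3 HNKO libraries, the stellate and fibroblast sum was 1369 CPM in library 2, 862 in library 3, 743.9 in library 4, 569 in library 22 and 1620 in library 23, and these libraries had the same order in Tpm4. At day 6 the sums were 819, 1275, 1594, 1045 and 836 CPM in libraries 6, 7, 29, 30 and 31, where libraries 6 and 31 changed places in the order of Tpm4. At day 21 they were 1427, 693 and 1013 CPM in libraries 37, 38 and 40, where libraries 38 and 40 changed places. In the day 3 HNKO libraries 2, 3, 4, 22 and 23 the cholangiocyte sum was 415, 299.7, 138, 121 and 386 CPM. The HNKO libraries with the most Tpm4 at days 6 and 21, 29 and 37, also had high sums, 1594 and 1427 CPM of stellate and fibroblast markers and 764 and 495 CPM of cholangiocyte markers. Libraries 23, 29 and 37, the highest for Tpm4 among the HNKO libraries of days 3, 6 and 21, also had the lowest hepatocyte sums of their groups, 66905, 56448 and 76156 CPM. Group medians of the hepatocyte sum were 83462 to 98565 CPM in HNKO and 111287 to 126529 CPM in WT. The HNKO library with the most Tpm1 at day 12, library 11 (6.58 log2 CPM), had 650 CPM of stellate and fibroblast markers, within the WT range, and 2850 CPM of striated muscle markers. Libraries 23, 29 and 37 had 102, 7.57 and 2517 CPM of striated muscle markers. What part these cells have in the fold changes was not tested. Of the 12 smooth muscle markers, which include Myh11, Cnn1 and Actg2, 0, 1 and 1 were called higher at days 3, 6 and 21, and of 7 hepatocyte markers 2 were called lower at day 6. Of 6 endothelial markers none was called higher at days 3, 6 and 21 and 1 was called lower at day 6, of 6 macrophage markers 0, 2 and 1 were called higher, and of 4 mesothelial markers none was called by edgeR.

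**Figure D5:**
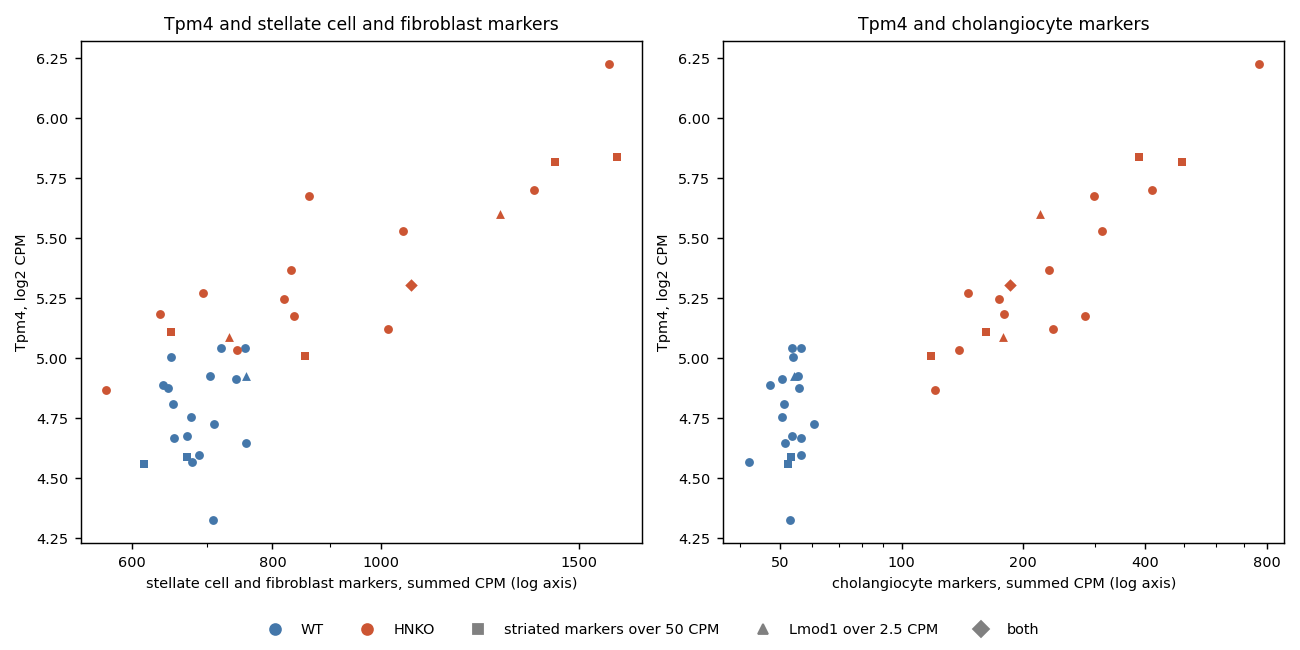
Tpm4 (log2 CPM) beside the summed markers of stellate cells and fibroblasts (left) and of cholangiocytes (right), in CPM on log axes, each point 1 of 38 libraries with colours and shapes as in the plot of levels. The cholangiocyte sum separates the genotypes, at 60.7 CPM or less in WT and 118 CPM or more in HNKO, and the highest Tpm4 (6.23, library 29) has the highest cholangiocyte sum.

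Genes around the 10 in the same machinery moved unevenly. Among 12 proteins that anchor or accompany the actin filament, 2, 5 and 4 were called higher in HNKO at days 3, 6 and 21 and none lower. Tagln2, transgelin 2, an actin bundler outside muscle, was called at each of these days, with log2 fold changes of 1.19 (SE 0.25), 1.57 (SE 0.27) and 1.13 (SE 0.27), edgeR adjusted p = 0.00533, 0.000251 and 0.0187, and stood at 0.86 at day 12. Flna, the filament crosslinker filamin A, was also called at each, at 0.74 (SE 0.22), 1.15 (SE 0.24) and 1.12 (SE 0.25), edgeR adjusted p = 0.0429, 0.00145 and 0.0108, with 0.83 at day 12. Csrp1, a LIM protein of actin bundles, was called at days 6 and 21 with 0.79 (SE 0.20) and 0.83 (SE 0.21), edgeR adjusted p = 0.00746 and 0.0237, with 0.63 at day 12. Its call at day 12, given as a description, is what brought it to 3 days. Tagln, or transgelin, was called at days 6 and 21 as well, with 0.93 (SE 0.30) and 1.11 (SE 0.31), edgeR adjusted p = 0.0356 and 0.0411. It stood at 0.49 at day 12. The smallest value of this list at day 6 was that of the crosslinker Actn4, 0.09 (SE 0.12, adjusted p = 0.702). Without the 7 libraries with striated markers the counts on those days were 1, 4 and 0.

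Of 12 genes that switch contraction on and off (among them myosin light chain kinase, calmodulins and subunits of myosin phosphatase) none was called in either direction at days 3, 6 and 21. At day 6 their log2 fold changes ran from -0.31 (SE 0.14, edgeR adjusted p = 0.144) for Mylk, the light chain kinase, to 0.14 (SE 0.19, adjusted p = 0.704) for Calm3. Of 13 other actins, tropomyosins, myosins and calponins, 1 was called higher at day 6, Actb, and none at days 3 and 21. The widest values at day 6 were those of Acta2, the actin of vascular smooth muscle and myofibroblasts, at 1.95 (SE 0.68, edgeR adjusted p = 0.0539), and Acta1, at -1.79 (SE 7.08, adjusted p = 0.911). Of 4 genes of the serum response factor pathway, 1 was called higher, Mrtfa, a coactivator, at day 6. Myocd, the smooth muscle coactivator, had the largest log2 fold change of these at day 6, 0.76 (SE 1.26, edgeR adjusted p = 0.759), and Mrtfb the smallest, 0.07 (SE 0.17, adjusted p = 0.832).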

How the data were processed

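Total RNA from 40 whole liver samples was depleted of ribosomal RNA and sequenced in pairs from a stranded kit by the authors, and the deposited table holds raw counts of fragments per gene, 1 column per library, with no pooling. Per the labels and the study's methods, reads were aligned with STAR 2.7.2b to GRCm38 with GENCODE M22 genes and counted with featureCounts 1.6.4 where both ends aligned. Whether counting used the strand is not given in the sources used here, and 0 columns belonged to other samples.

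From these counts, genes with enough counts (minimum count 10, total 15, minimum proportion 0.7) were tested in edgeR 4.0.16 (R 4.3.3, TMM scaling, quasi-likelihood test in its legacy computation), with 1 mean for each of the 8 groups and Benjamini-Hochberg adjustment over the 20297 tested genes. No label says which samples came from which mouse, so p-values measure the spread between these samples, which may in part be technical. Standard errors are the size of the log2 fold change divided by the square root of F. Levels are log2 CPM with a prior count of 2. The precision of a level is set by 16151037 to 64181492 counts per library and by each gene's own counts.

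Gene symbols were matched for 55394 of 55487 rows. Positions, exon lengths and overlaps came from GENCODE M21 on GRCm38, and promoter windows from RefSeq (GRCm38.p6).

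The 10 genes, the marker lists and the tests were chosen with earlier results of these data known. Text names all 10 genes, and of the other lists of contractile and actin-binding genes those called on 3 or more days, day 12 included, and those with the largest and smallest log2 fold change at day 6. Marker lists are given as counts and summed levels. Other genes behind some counts (Actb, Myh4, Mrtfa and Tagln), and single stellate cell and fibroblast markers, were named after their values were seen. Alternatives were other scaling, filters, tools (DESeq2 1.42.0), library choices and leaving out each library in turn. Leaving out the 7 libraries with over 50 CPM of striated markers, or the 4 with over 2.5 CPM of Lmod1, testing day effects over days 3, 6 and 21 and correlations without day 12 were chosen after seeing the data. The fits were also applied to simulated data in which whole groups changed. Those data held no single libraries that stand apart, so they do not bear on the values that such libraries moved.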

Additional observations from a re-analysis of the deposited data

Results flagged for a closer look

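In 70 combinations of a gene and a group of 4 to 6 libraries, 4 held a library far from the others by Dixon's test, and chance alone flags about 1 in 20 such groups. At WT day 12, library 14 was the highest for Actg2 (1.34 log2 CPM, the next at -0.55) and for Myh11 (5.04, the next at 3.50). At WT day 6, library 28 was the lowest for Tpm2 (1.90 log2 CPM, the next at 2.20). At WT day 21, library 39 was the lowest for Cald1 (7.71 log2 CPM, the next at 8.10).

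Libraries 17 and 18 (HNKO, day 21), which failed quality control and entered no comparison, were set beside the WT day 21 libraries after scaling all 40 together. Of the 10 genes, 5 lay above every WT library of that day in library 17 and 6 in library 18, and 2 lay below every WT library in each. Of all 19981 genes tested over 40 libraries, 25.6% lay above and 58.6% below in library 17, and 28.7% above and 36.8% below in library 18, so both depart from WT across the whole table. Library 17 did so for Actg2 (2.34 log2 CPM, highest WT -1.58), Tpm4 (5.02, highest WT 4.93), Myh11 (3.89, highest WT 3.19), Myl9 (3.25, highest WT 1.64) and Cnn2 (4.61, highest WT 3.09). Library 18 did so for Tpm1 (5.72 log2 CPM, highest WT 5.37), Tpm4 (5.43), Myh9 (8.73, highest WT 8.37), Myl9 (2.28), Cnn1 (-0.81, highest WT -1.18) and Cnn2 (3.83). Tpm4, Myl9 and Cnn2 were above WT in both libraries. Below every WT library were Cald1 (6.997 log2 CPM, lowest WT 7.73) and Cnn1 (0 counts) in library 17, and Tpm2 (0.88 log2 CPM, lowest WT 1.80) and Actg2 (0 counts) in library 18.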

How the results depend on the processing

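Of 96 counts and correlations recomputed under settings other than leaving out 1 library, 83 were within 1.5 times the count reported or on the same side of the threshold. With DESeq2, 1 gene was called at day 12. At day 21, 2 were called over all 40 libraries and 2 with the run of library numbers as a covariate, and at day 3, 1 was called in a fit of the day's 2 groups. Without the 7 libraries with striated markers, 1 was called at day 3, 0 at day 21 and 0 for the day effect in HNKO, and without the 4 libraries high in Lmod1, 1 for the day effect in HNKO. Over days 3, 6 and 21 alone, 0 were called for the day effect in HNKO. The genes behind these counts were Tpm2 at day 12, at day 21 Cnn2 beside Tpm4 over 40 libraries and Tpm1 beside Tpm4 with the covariate, and Tpm4 where a call at day 3 or 21 was lost. The correlation of Tpm1 with Tpm4 in library numbers 1 to 21 (0.456), and of Myh11 with Cnn1 in 22 to 41 (0.814) without the 4 libraries (0.357) and without the day 12 libraries (0.460), no longer passed. Leaving out 1 library gave 1 to 3 called genes at day 3, 0 to 1 at day 12, 0 to 1 at day 21 and 1 to 3 for the day effect in HNKO. Fewer libraries are part of several of these settings, and beyond that the cause was not tested.

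Fold changes turned sign in 8 of 392 values under these settings, all of them uncalled: Cnn1 at day 3 (-0.052, library numbers as a covariate), Tpm2 at days 12 and 21 (-0.11 and -0.55), Actg2 at day 21 (-0.087) and Cnn1 at day 21 (-0.015) without the 7 libraries, and Tpm2 at day 6 (-0.27), Actg2 at day 12 (-0.44) and Myh11 at day 12 (-0.17) without the 4. Leaving out 1 library turned 8 of 380, with ranges of -0.069 to 0.42 for Myl9 and -0.12 to 0.50 for Cnn1 at day 3, -0.27 to 0.24 for Tpm2 at day 6, and -0.75 to 0.78 for Actg2, -1.34 to 1.55 for Tpm2 and -0.024 to 0.64 for Cnn1 at day 21. The low counts of Actg2 and Cnn1 limit what their fold changes can show.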
